A study of Mus musculus with 9 samples.

Results

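Skeletal muscle myosin was followed through 9 genes in RNA from mouse mandibles. They are the heavy chains Myh1, Myh2, Myh3, Myh4, Myh7 and Myh8 and the light chains Myl1, Myl2 and Myl3, taken by symbol from the 27179 genes of the count table. All 9 were found, and all 9 were among the 16329 genes with enough counts to be tested. The libraries came from 5 wild type (WT) mice and from 4 mice labelled FcγRIIB-/-, which are described as lacking the inhibitory Fc gamma receptor IIB and as a model of lupus. Both groups carry the strain label C57BL/6 and an age of 6 months, and no other allele or treatment is given for either. Whole mandibles with their teeth were pulverized, so that muscle attached to the bone could enter the RNA, and how far muscle was removed is not given in the sources used here.

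Myosin is the motor of the thick filament. A heavy chain carries the head that pulls on actin, and each head binds an essential and a regulatory light chain. Adult skeletal fibers are typed by their heavy chain, with Myh7 in slow type I fibers, Myh2 in fast type IIa, Myh1 in type IIx and Myh4 in the fastest type IIb. Myh3 and Myh8 encode the embryonic and the neonatal (perinatal) heavy chains, which limb muscles largely replace after birth and which jaw muscles can retain. Myl1 encodes the essential light chains of fast fibers, Myl3 the essential light chain of slow fibers and ventricle, and Myl2 the regulatory light chain of slow fibers and ventricle. Mylpf, which is not one of the 9, encodes the regulatory light chain of fast fibers.

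The libraries held between 24158960 and 26787359 counts in WT and between 21453880 and 28991631 in those labelled FcγRIIB-/-. Fcgr2b, the gene named by the label, had 442 to 954 counts in WT, against 562 to 757 with the knockout label, and did not pass the test (log2 fold change 0.21, adjusted p = 0.442, edgeR). Without WT replicate 2 it passed as higher (0.46, adjusted p = 0.0131), so the groups are called by their labels throughout. Other tissues of the mandible also moved with the label. All 9 marrow myeloid markers and all 7 tested erythroid markers were lower, and 6 of 8 tested markers of keratinized epithelium were lower and 1 higher. Over all tested genes 14% were called higher and 19.3% lower. The summed myeloid markers lay between 1127 and 3394 CPM (the cpm value of edgeR, counts divided by the TMM-normalized library size and scaled alike in all libraries) in WT and between 139 and 418 in the libraries labelled FcγRIIB-/-. The summed erythroid markers lay between 1918 and 2264 CPM and between 125.3 and 493.0 CPM, and the keratinized markers between 5456 and 19790.4 CPM and between 4324 and 5419 CPM. Of 7 bone and tooth markers 2 were higher and 1 lower, with sums of 35843 to 66832 CPM in WT and 61243 to 89830.4 CPM in the libraries labelled FcγRIIB-/-. The higher keratin marker, Krt5, lost its call in 5 of 9 fits with a library left out, and the lower bone marker, Ibsp, in 7 of 9. The part of these shifts in the myosin results was not tested.

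Muscle RNA was followed through a reference set. The set, 15 genes that all skeletal fibers use, among them skeletal actin Acta1, creatine kinase Ckm and nebulin Neb, summed to 3777 to 9060 CPM in WT and to 8185 to 15014 CPM in the libraries labelled FcγRIIB-/-. WT replicate 2 was the lowest library and FcγRIIB-/- replicate 1 the highest, and the groups overlapped. Of the 15 genes 4 passed as higher (Tcap, Ckm, Ldb3 and Actn2) and none as lower. Among all tested genes 14% passed as higher and 19.3% as lower. The median log2 fold change of the 15 was 0.60 against 0.0055 over all tested genes. Without FcγRIIB-/- replicate 1 only 1 of the 15 passed, and without FcγRIIB-/- replicate 4 only 2 did. In bulk RNA, fewer cells of a type and less RNA per cell cannot be told apart, and the same holds for more muscle and more myosin RNA in each fiber.

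The fast and neonatal heavy chain genes lie next to each other on chromosome 11 and share sequence. In RefSeq on GRCm38.p6, all on the plus strand, Myh3 spans chr11:67078273-67102291, Myh2 chr11:67171027-67197517, Myh1 chr11:67200102-67224577, Myh4 chr11:67237812-67260447 and Myh8 chr11:67277124-67308634. Myh7 is on chromosome 14, Myl1 on chromosome 1, Myl2 on chromosome 5 and Myl3 on chromosome 9. Myh1, Myh2, Myh4 and Myh8 together held between 99.8% and 99.9% of the summed counts of the 6 heavy chains in every library. The longest run of bases found unchanged in the 250 bases before the starts of all 4 genes has 14 bases. The stretches around it are shown to place the run ahead of the 4 abundant heavy chain genes, and outside the run they are not identical. Each is 109 bases, 5′ to 3′ on the plus strand from RefSeq on GRCm38.p6, and holds no annotated GENCODE exon. Capitals mark this run only, and shorter runs that the 4 share are left in lower case.
Myh1, chr11:67199882-67199990: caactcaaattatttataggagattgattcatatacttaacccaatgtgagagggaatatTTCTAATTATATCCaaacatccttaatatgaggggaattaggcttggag
Myh2, chr11:67170842-67170950: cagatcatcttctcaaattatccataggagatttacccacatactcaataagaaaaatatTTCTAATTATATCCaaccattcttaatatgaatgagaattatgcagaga
Myh4, chr11:67237594-67237702: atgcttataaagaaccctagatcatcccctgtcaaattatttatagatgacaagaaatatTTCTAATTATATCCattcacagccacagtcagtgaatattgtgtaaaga
Myh8, chr11:67277010-67277118: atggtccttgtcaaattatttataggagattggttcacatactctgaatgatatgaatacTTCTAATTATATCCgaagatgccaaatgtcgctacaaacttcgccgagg
The run begins 160 bases before the start of Myh1, 125 before Myh2, 158 before Myh4 and 54 before Myh8. Searched on both strands in the same 250-base window of 32817 RefSeq starts, it was held by 0.0122% of them, and these were the 4 genes shown. It was not in the windows of the other 5 genes. Since the run was chosen for its presence in these 4 windows, its rarity elsewhere is no test. The E-box CANNTG, the motif bound by MyoD and its relatives, was in the windows of 7 of the 9 genes and of 66.2% of all starts. The MCAT motif CATTCC, bound by TEAD factors, was in those of 5 of the 9 and of 12.6% of all starts. TATAAA, the letters of a TATA box, was in those of 6 of the 9 and of 12.4% of all starts. These matches describe the letters only.

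The transcripts resemble each other too, which limits how well single reads tell them apart. Reads were 75 bases long. Of the stretches of 75 bases in GENCODE transcripts of Myh1, 20.9% also occur unchanged in another gene, most of them in Myh2. The share was 18.3% for Myh2, 18.6% for Myh7, most of it with the cardiac alpha heavy chain Myh6, 10.1% for Myh8, 9.68% for Myh4 and 1.84% for Myh3. For Myl1 it was 11.2%, all with the pseudogene Mylf-ps, for Myl3 2.14% and for Myl2 0%. How reads that match several genes were counted is not stated, so that the split of reads between the heavy chains, and the total of Myl1, is uncertain.

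Levels between genes were compared as CPM per kilobase of annotated exon. In WT, Myh1 at 429 ± 117 (SD, n = 5) and Myl1 at 427 ± 127 were the highest of the 9 and did not differ beyond their spread. Myh4 followed at 214 ± 93.2, then Myh2 at 53.4 ± 20.7 and Myh8 at 30.6 ± 7.59. The slow and embryonic genes were far below, with Myl2 at 2.92 ± 2.30, Myh3 at 0.564 ± 0.174, Myl3 at 0.502 ± 0.191 and Myh7 at 0.359 ± 0.360, and the last 3 did not differ beyond their spread. In the libraries labelled FcγRIIB-/-, Myl1 was highest at 970 ± 254 CPM per kilobase (SD, n = 4), before Myh1 at 666 ± 212, Myh4 at 266 ± 54.9, Myh2 at 94.8 ± 37.7 and Myh8 at 61.8 ± 26.7. Myl2 was at 3.20 ± 2.17, Myl3 at 1.12 ± 0.532, Myh7 at 0.747 ± 0.397 and Myh3 at 0.724 ± 0.211. In both groups the fast and neonatal genes stood far above the slow and embryonic ones.

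**Figure D1:**
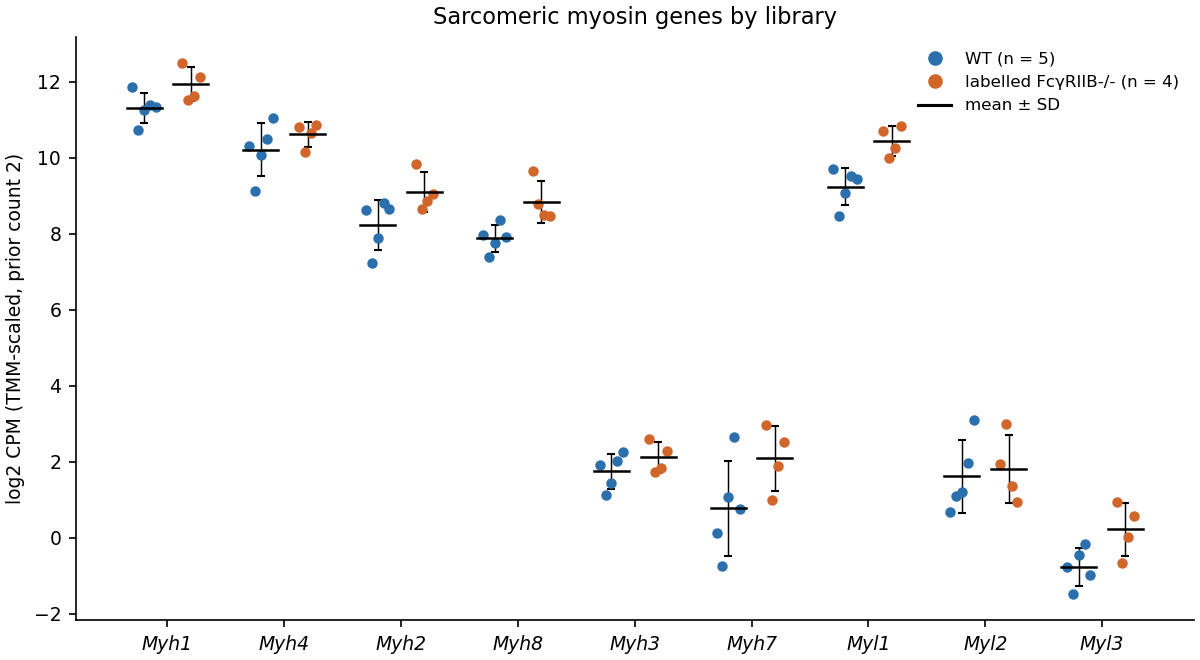
The log2 CPM (vertical axis, prior count of 2) of each of the 9 myosin genes is shown by library, with 5 WT libraries in blue, 4 labelled FcγRIIB-/- in orange, and the mean and SD in black. The orange points of Myl1 and Myh8 lie above all blue points of the same gene, and the other 7 genes overlap.

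Of the 9 myosin genes 3 passed the test as higher in the libraries labelled FcγRIIB-/-: the neonatal heavy chain Myh8, the fast essential light chain Myl1 and the slow essential light chain Myl3, whose call was lost in 11 of 15 alternatives. None passed as lower, and all 9 fitted differences were above 0, with a median log2 fold change of 0.83. The quasi-likelihood test of edgeR, at a Benjamini-Hochberg adjusted p below 0.05, called 14% of all 16329 tested genes higher and 19.3% lower. For 2 of the 9 genes, Myh8 and Myl1, the groups did not overlap, with the libraries labelled FcγRIIB-/- higher, where 12.1% of all tested genes were so separated upward and 17.5% downward.

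Myh1, the type IIx heavy chain, had 3692.5, 1701, 2425, 2668 and 2571 CPM in WT replicates 1 to 5. In FcγRIIB-/- replicates 1 to 4 it had 5723, 2947, 3135 and 4419.9 CPM. WT replicate 1 exceeded 2 of the 4 libraries labelled FcγRIIB-/-, so the groups overlapped, and the log2 fold change of 0.64 (SE 0.24) did not pass (adjusted p = 0.0660, edgeR). Without WT replicate 1 it was 0.81 and passed (adjusted p = 0.0287), as it did without FcγRIIB-/- replicate 2 (0.76, adjusted p = 0.0491) and in DESeq2 (0.65, adjusted p = 0.0177). Over all alternatives the adjusted p of Myh1 ran from 0.00933 to 0.197.

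Myh4, the type IIb heavy chain, had 1268, 557, 1082, 1443 and 2097 CPM in WT and 1799.8, 1133, 1611 and 1862 CPM in the libraries labelled FcγRIIB-/-. WT replicate 5 was the highest of all 9 libraries and WT replicate 2 the lowest. For Myh4 the log2 fold change was 0.31 (SE 0.31, adjusted p = 0.458, edgeR), within the spread between mice.

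Myh2, the type IIa heavy chain, had 397, 150.5, 235, 444 and 398 CPM in WT and 912, 402, 466.1 and 527 CPM in the libraries labelled FcγRIIB-/-. WT replicate 4 was above FcγRIIB-/- replicate 2, and FcγRIIB-/- replicate 1 stood well above the rest. The log2 fold change of 0.83 (SE 0.32) did not pass over all genes (adjusted p = 0.0714, edgeR), and the two-sided exact permutation test of its CPM alone gave p = 0.0397.

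Myh8, the neonatal heavy chain, had 248, 166, 215, 330.5 and 242 CPM in WT and 796, 437, 358 and 353 CPM in the libraries labelled FcγRIIB-/-. Every library labelled FcγRIIB-/- was above every WT library, although the gap between 330.5 in WT replicate 4 and 353 in FcγRIIB-/- replicate 4 was small. The level was 241 ± 59.8 CPM (SD, n = 5) for WT against 486 ± 210 CPM (SD, n = 4), a 2.02-fold difference that passed (log2 fold change 1.02, SE 0.26, adjusted p = 0.0131, edgeR). FcγRIIB-/- replicate 1 carried much of the size. When single libraries were omitted the log2 fold change of Myh8 lay between 0.67, without FcγRIIB-/- replicate 1, and 1.17, and its adjusted p between 0.0112 and 0.0277.

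Myh3, the embryonic heavy chain, was low throughout, at 3.70, 2.09, 2.62, 4.002 and 4.68 CPM in WT and 6.03, 3.23, 3.52 and 4.76 CPM in the libraries labelled FcγRIIB-/-. These values rest on 52 to 172 counts. Its log2 fold change was 0.36 (SE 0.26, adjusted p = 0.315, edgeR), and the groups overlapped.

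Myh7, the slow heavy chain, had 28, 13, 52, 169 and 41 counts in WT, or 1.01, 0.522, 2.005, 6.20 and 1.601 CPM. In the libraries labelled FcγRIIB-/- it had 220, 41, 86 and 111 counts, or 7.71, 1.89, 3.64 and 5.63 CPM. WT replicate 4 was below FcγRIIB-/- replicate 1 alone and far from the other WT mice, and FcγRIIB-/- replicate 2 was within the range of those. The log2 fold change of 1.05 (SE 0.61) did not pass (adjusted p = 0.207, edgeR), but without WT replicate 4 it was 1.89 and passed (adjusted p = 0.0181).

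Myl1, the fast essential light chain, had 831, 356, 533, 736 and 689 CPM in WT and 1649, 1023, 1217 and 1833 CPM in the libraries labelled FcγRIIB-/-. All 4 libraries labelled FcγRIIB-/- lay above all 5 WT libraries. The means were 629 ± 187 CPM (SD, n = 5) and 1431 ± 375 CPM (SD, n = 4), a 2.27-fold difference (log2 fold change 1.19, SE 0.24, adjusted p = 0.00508, edgeR). It passed under every alternative tried, with log2 fold changes between 1.04 and 1.32 and adjusted p up to 0.0166.

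Myl3, the slow essential light chain, had 14, 7, 17, 22 and 11 counts in WT and 53, 12, 22 and 28 counts in the libraries labelled FcγRIIB-/-. In CPM this was 0.507, 0.281, 0.655, 0.808 and 0.429 against 1.86, 0.555, 0.932 and 1.42. FcγRIIB-/- replicate 2 fell inside the WT range. The log2 fold change of 1.15 (SE 0.38) passed (adjusted p = 0.0411, edgeR), but not in 11 of 15 alternatives, among them leaving out any one of WT replicates 1, 2, 3 and 5 or of FcγRIIB-/- replicates 1, 3 and 4. Without FcγRIIB-/- replicate 1 it was 0.84 (adjusted p = 0.140).

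Myl2, the slow and ventricular regulatory light chain, had 42, 51, 58, 105 and 218 counts in WT and 107, 170, 59 and 36 counts in the libraries labelled FcγRIIB-/-. In CPM, the WT values of 1.52, 2.05, 2.24, 3.85 and 8.51 enclosed those of the other group, at 3.75, 7.86, 2.50 and 1.82. The log2 fold change was 0.13 (SE 0.54, adjusted p = 0.870, edgeR) and turned negative without WT replicate 1 or 2 or without FcγRIIB-/- replicate 2. FcγRIIB-/- replicate 2, the highest of its group for Myl2, was the lowest of its group for 7 of the other 8 genes, all but Myh8.

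The muscle reference gave a scale on which a gene is compared with muscle RNA rather than with all RNA. The same test was run with each library sized by its summed counts of the 15 reference genes, which moved the median log2 fold change of all genes to -0.74. On this scale 0.098% of all tested genes passed as higher and 29.3% as lower, and none of the 9 myosin genes passed in either direction. The largest difference was that of Myl1, with a log2 fold change of 0.50 (SE 0.35, adjusted p = 0.211, edgeR). Standard errors on this scale varied less across genes than on the TMM scale and did not follow each gene's own spread. A missing call here therefore does not show that a gene follows the muscle reference. Myl1 per reference count was higher in every library labelled FcγRIIB-/- than in any WT library, seen afterwards and given with no test. The nearest were WT replicate 2, with 8864 Myl1 to 94115 reference counts, and FcγRIIB-/- replicate 1, with 47073 to 428511. Myl3 was at 0.38 (SE 0.48), Myh7 at 0.34 (SE 0.43), Myh8 at 0.27 (SE 0.36) and Myh2 at 0.15 (SE 0.36). Myh1 was at -0.10 (SE 0.32), Myh4 at -0.32 (SE 0.34), Myh3 at -0.35 (SE 0.42) and Myl2 at -0.41 (SE 0.42).

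**Figure D2:**
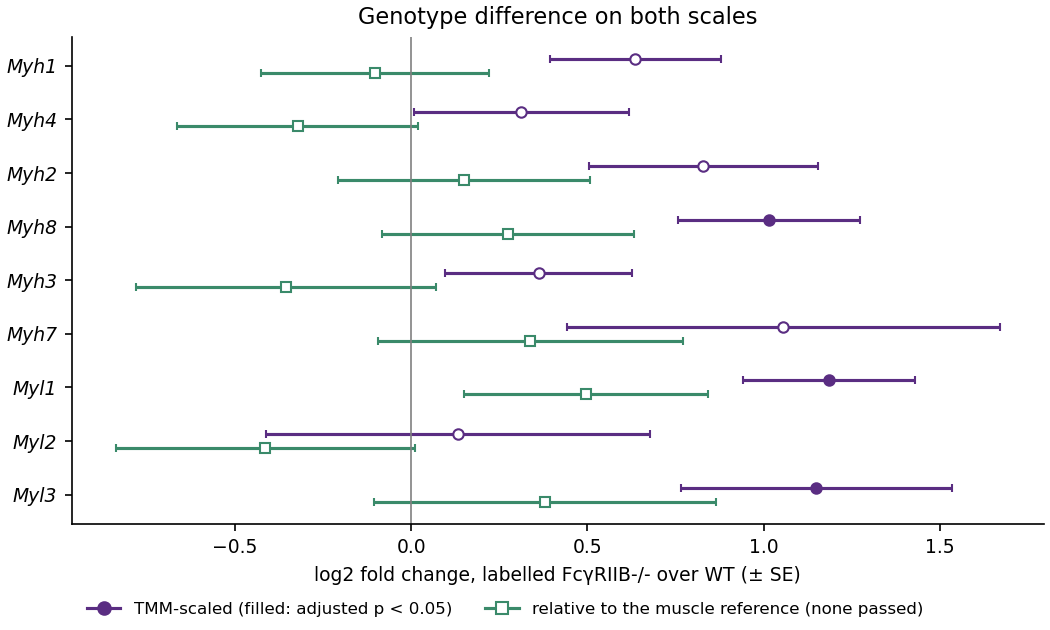
The log2 fold change of the libraries labelled FcγRIIB-/- over WT (horizontal axis, bars are SE) is drawn for each gene on the TMM scale (circles, filled where the adjusted p is under 0.05) and relative to the muscle reference (squares). The circles all lie above 0, with Myh8, Myl1 and Myl3 filled, and the squares lie between -0.41 for Myl2 and 0.50 for Myl1.

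The make-up of the heavy chain pool asks about fiber type without any library size. Each share is the count of 1 gene over the summed counts of the 6 heavy chains in that library. Myh1 made up 65.8, 66.0, 61.2, 54.5 and 48.4% in WT replicates 1 to 5 and 61.9, 59.9, 56.2 and 61.6% in FcγRIIB-/- replicates 1 to 4. Its means of 59.2 ± 7.64% (SD, n = 5) and 59.9 ± 2.62% (SD, n = 4) were inside the mouse-to-mouse spread (p = 0.849, exact permutation, two-sided).

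Myh4 made up 22.6, 21.6, 27.3, 29.5 and 39.5% in WT and 19.5, 23.0, 28.9 and 26.0% in the libraries labelled FcγRIIB-/-. WT replicate 5 had the largest Myh4 share and the smallest Myh1 share of all 9 libraries. The Myh4 means were 28.1 ± 7.14% and 24.3 ± 4.04% (exact permutation p = 0.413). The Myh1 and Myh4 shares therefore varied more among the WT mice than between the group means.

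Myh2 made up 7.07, 5.84, 5.92, 9.06 and 7.49% in WT and 9.87, 8.16, 8.36 and 7.35% in the libraries labelled FcγRIIB-/- (exact permutation p = 0.151). Myh8 made up 4.42, 6.45, 5.44, 6.75 and 4.56% in WT and 8.61, 8.89, 6.42 and 4.92% in the libraries labelled FcγRIIB-/- (exact permutation p = 0.151). The share of Myh8 was highest in FcγRIIB-/- replicates 1 and 2, and FcγRIIB-/- replicates 3 and 4 were inside the WT range. The groups thus overlapped in the share of Myh8, although they did not in its CPM.

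The slow and embryonic shares were very small. Myh7 made up between 0.0181 and 0.127% in WT and between 0.0385 and 0.0834% in the libraries labelled FcγRIIB-/- (exact permutation p = 0.516). Myh3 made up between 0.0659 and 0.0881% in WT and between 0.0630 and 0.0664% in the libraries labelled FcγRIIB-/- (exact permutation p = 0.0794). None of the 6 shares, which sum to 100% and are not independent, was under an unadjusted p of 0.05, and the smallest p that 5 against 4 libraries allow is 0.00794 by exact permutation. Without FcγRIIB-/- replicate 4 the lower share of Myh3 came to p = 0.0357 by the exact permutation test.

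**Figure D3:**
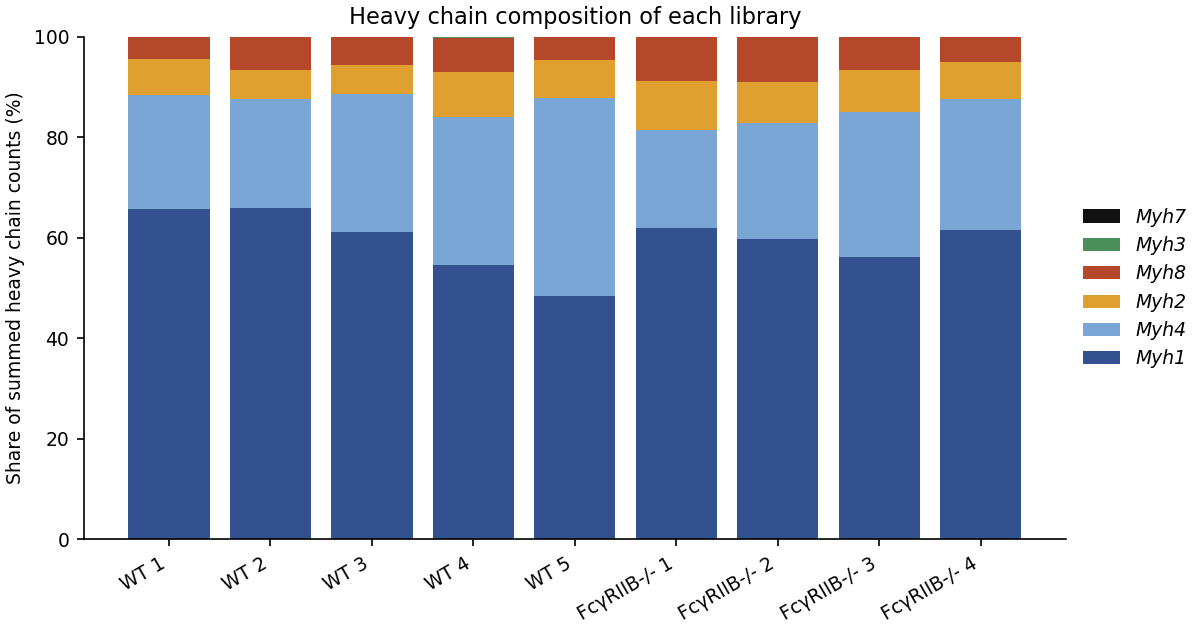
Each bar is 1 library, and its segments give the percent of the summed heavy chain counts held by each of the 6 heavy chains, so that each bar reaches 100%. Myh1 and Myh4 fill most of every bar, the Myh4 segment is widest in WT replicate 5 at 39.5%, and Myh3 and Myh7 are too small to see.

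Ratios of 2 genes within a library were compared for 9 pairs, mostly of a slow or cardiac isoform over its fast counterpart. None of the 9 reached an unadjusted p of 0.05 in the exact permutation test, and all 9 overlapped. Myh2 to Myh4 had the lowest p, with WT libraries at a log2 ratio of -1.97 ± 0.32 (SD, n = 5) and libraries labelled FcγRIIB-/- at -1.52 ± 0.39 (SD, n = 4, exact permutation p = 0.119). For Myh7 to Myh4 the mean log2 ratios were -9.51 and -8.55 (exact permutation p = 0.167), and for Myh1 to Myh4 they were 1.10 and 1.31 (exact permutation p = 0.540).

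Among the light chain pairs, Myl3 to Myl1 had mean log2 ratios of -10.17 and -10.30 (exact permutation p = 0.683), and Myl2 to Mylpf of -7.89 and -8.80 (exact permutation p = 0.246). The slow over fast troponin pairs, Tnni1 to Tnni2, Tnnt1 to Tnnt3 and Tnnc1 to Tnnc2, differed between the group means by -0.40, -0.22 and 0.20 (exact permutation p from 0.175 to 0.571). The calcium pump pair Atp2a2 to Atp2a1 differed by -0.45 (exact permutation p = 0.381). In all of these pairs the groups overlapped, although the Tnni1 to Tnni2 difference was larger in size than the WT SD of 0.37.

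Per heavy chain count, the fast light chains Myl1 and Mylpf stood lower in every WT library than in any labelled FcγRIIB-/-. This was noticed after the values were seen and is given with no test. Counts of Myl1 per 100 counts of the 6 heavy chains were 14.8, 13.8, 13.5, 15.04 and 13.0 in WT and 17.8, 20.8, 21.8 and 25.6 in the libraries labelled FcγRIIB-/-. For Mylpf they were 17.1, 16.5, 16.9, 18.0 and 13.7 in WT and 22.1, 23.6, 23.5 and 24.8 in the libraries labelled FcγRIIB-/-. In both genes the groups were apart, and FcγRIIB-/- replicate 1, the library richest in muscle RNA, had the lowest values of its group.

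**Figure D4:**
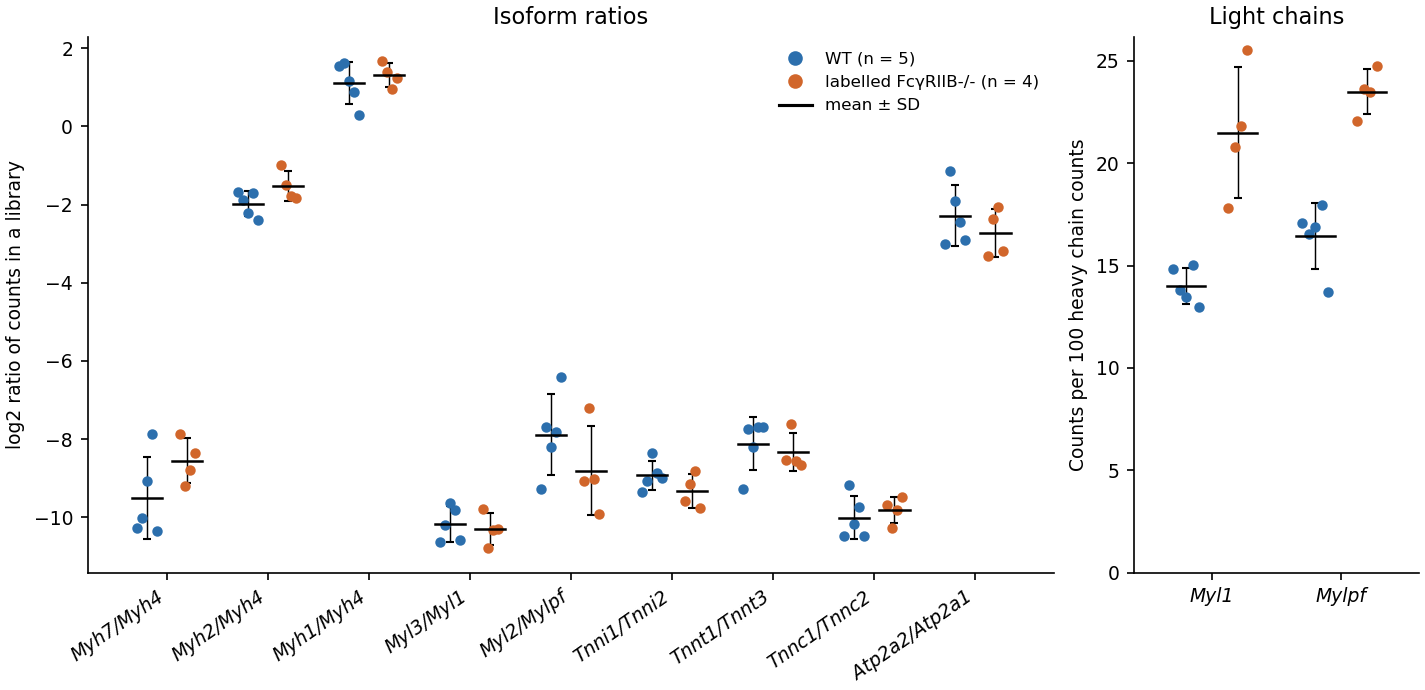
The left panel gives the log2 ratio of counts for 9 pairs of genes in each library and the right panel the counts of Myl1 and Mylpf per 100 heavy chain counts, with WT in blue, libraries labelled FcγRIIB-/- in orange, and mean and SD in black. The pairs overlap, and the light chains are apart, at 13.0 to 15.04 against 17.8 to 25.6 for Myl1.

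Transcript length moved with this difference. The exons of Myl1 cover 1475 bases and those of Mylpf 819, against 6016 to 7871 for the 6 heavy chains. Over all tested genes with a length, the median log2 fold change was 0.17 in 4048 genes under 2000 bases, 0.0037 in 8185 genes from 2000 to under 5000 bases and -0.15 in 3734 genes of 5000 bases or more. Among the myosin genes and the fixed muscle lists the same medians were 0.88 in 21 genes, 0.58 in 17 and 0.39 in 19. The part of length in the proportion of Myl1 and Mylpf to heavy chains was not tested.

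The remaining sarcomeric myosins, 8 of which were in the table, included 5 that passed as higher (14% of all genes did) and none as lower, with a median log2 fold change of 1.34. Mylpf, the fast regulatory light chain, rose 2.15-fold on the fitted scale, from 733 ± 206 CPM (SD, n = 5) to 1573 ± 407 CPM (SD, n = 4), with no overlap (log2 fold change 1.10, SE 0.23, adjusted p = 0.00581, edgeR). The other 4 were present at few counts. Myh13 encodes the heavy chain of extraocular and laryngeal muscle and Myh7b a slow heavy chain also found in extraocular muscle and heart. Myh6 encodes the cardiac alpha heavy chain, known also from jaw muscles of some mammals, and Myl10 a regulatory light chain.

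Myh13 had 31, 31, 19, 107 and 21 counts in WT and 345, 39, 180 and 257 in the libraries labelled FcγRIIB-/- (log2 fold change 2.45, SE 0.60, adjusted p = 0.0108, edgeR). Myh7b had 16, 18, 12, 49 and 11 counts in WT and 101, 26, 76 and 105 in the libraries labelled FcγRIIB-/- (log2 fold change 2.04, SE 0.49, adjusted p = 0.00975, edgeR). Myh6 had 5, 11, 2, 26 and 16 counts in WT and 71, 3, 29 and 96 in the libraries labelled FcγRIIB-/- (log2 fold change 2.24, SE 0.78, adjusted p = 0.0489, edgeR). In each of the 3 genes WT replicate 4 was above FcγRIIB-/- replicate 2, so the groups overlapped.

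Myl10 had a log2 fold change of 1.59 (SE 0.48, adjusted p = 0.0284, edgeR). Myh15, another heavy chain of extraocular muscle, was at 0.73 (adjusted p = 0.334), the atrial and embryonic essential light chain Myl4 at 0.15 (adjusted p = 0.581) and the atrial regulatory light chain Myl7 at -0.29 (adjusted p = 0.641). With a library left out, Myh13, Myh7b and Mylpf passed each time, Myh6 missed the threshold in 7 of 9 cases and Myl10 in 5, and the count of 5 fell to 3 without WT replicate 1, 3 or 5 or FcγRIIB-/- replicate 1 or 4. Relative to the muscle reference, Myh13 (1.64, adjusted p = 0.00145), Myh6 (1.35, adjusted p = 0.0255) and Myh7b (1.26, adjusted p = 0.0282) were 3 of the 16 genes of the whole table that passed as higher. Their SEs were 0.43, 0.48 and 0.46 on this scale, against 0.60, 0.78 and 0.49 on the TMM scale. These smaller SEs do not measure each gene's own spread between mice. Myh6 had 3 counts to 186800 reference counts in FcγRIIB-/- replicate 2, against 26 to 215758 in WT replicate 4. No library was left out for these genes on this scale. Of the 75-base stretches of Myh6, 14.9% also occur in Myh7. For Myh13 5.01% occur in other genes, most often the far more abundant Myh8, and for Myh7b 0% do. The counts of Myh6 and Myh13 are therefore uncertain, and the part of shared reads was not tested.

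Of the low-level heavy chains, 5 shared their highest WT library and their lowest library labelled FcγRIIB-/-, and Myh3 shared only the latter. The lowest WT library and the highest library labelled FcγRIIB-/- were not the same in all 5. In Myh7, Myh6, Myh7b, Myh13 and Myh15 alike, WT replicate 4 was the highest of the WT mice and FcγRIIB-/- replicate 2 the lowest of its group, in 5 of 5 genes. In Myh3 the highest WT library was replicate 5. FcγRIIB-/- replicate 2 was also the lowest of its group for the abundant Myh1, Myh2, Myh4, Myl1 and Mylpf. WT replicate 4 was also the highest WT library for the abundant Myh2 (444 CPM) and Myh8 (330.5 CPM). It was not so for Myh1, Myh4, Myl1 or Mylpf. Neither place is therefore particular to the low-level genes. This pattern was noticed after the values were seen and carries no test. Neither library was extreme in the muscle reference, where WT replicate 4 was at 7921 CPM, inside the WT range, and FcγRIIB-/- replicate 2 at 8632 CPM, with FcγRIIB-/- replicate 3 lower at 8185. Of the 7 cardiac markers, 4 were tested and 1 passed as higher (14% of all genes did), which is Myh6 itself. Nppa, a defining marker of atrium, had 0 counts in every library and Nkx2-5 at most 5, and the summed cardiac markers lay between 3.89 and 4.31 CPM in WT and between 4.07 and 12.2 CPM in the libraries labelled FcγRIIB-/-.

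**Figure D5:**
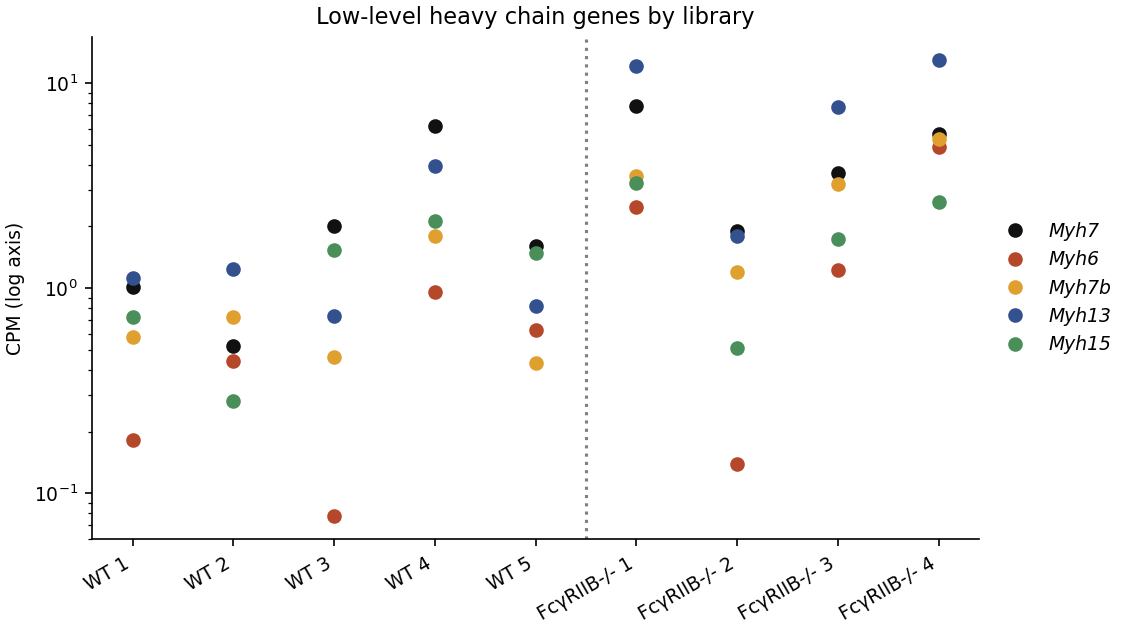
The CPM (log axis) of 5 low-level heavy chain genes, without Myh3, is drawn by library, with the WT libraries left of the dotted line and those labelled FcγRIIB-/- right of it. In each gene WT replicate 4 tops the WT libraries and FcγRIIB-/- replicate 2 is the lowest of its group, as for Myh7 at 6.20 and 1.89 CPM.

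Most genes that work with myosin in fast fibers were higher. Of 10 fast fiber partners 7 passed as higher (14% of all genes did) and none as lower (19.3% did), and the median log2 fold change was 0.88. The fast troponins led, with Tnnc2 at a log2 fold change of 1.37 (SE 0.25, adjusted p = 0.00290, edgeR), Tnni2 at 1.37 (SE 0.24, adjusted p = 0.00239, edgeR) and Tnnt3 at 1.14 (SE 0.25, adjusted p = 0.00633, edgeR). Parvalbumin (Pvalb), the calcium buffer of fast fibers, was at 1.02 (SE 0.26, adjusted p = 0.0147, edgeR). In these 4 genes the groups did not overlap. The fast calcium pump Atp2a1, at 0.42 (adjusted p = 0.242), did not pass. Relative to the muscle reference none of the 10 passed, with SEs from 0.32 for Tnnt3 to 0.36 for Casq1. These SEs did not follow each gene's own spread, so the missing calls do not show that these genes follow muscle RNA. Tnni2 and Tnnt3 per reference count were higher in every library labelled FcγRIIB-/- than in any WT library. This was seen afterwards and is given with no test, and the other genes of the list were not compared in this way.

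Of 10 slow fiber partners 6 passed as higher (14% of all genes did) and none as lower (19.3% did), and the median log2 fold change was 0.76. Slow troponin C (Tnnc1) had a log2 fold change of 1.69 (SE 0.34, adjusted p = 0.00433, edgeR) and slow troponin I (Tnni1) of 0.91 (SE 0.27, adjusted p = 0.0253, edgeR), at 0.963 and 2.08 CPM in WT. Tnni1 did not pass without FcγRIIB-/- replicate 1 or 3. Slow troponin T (Tnnt1, 0.86, adjusted p = 0.0457) and myoglobin (Mb, 0.78, adjusted p = 0.0393) passed with overlapping groups, and lost the call in 6 and 4 of the 9 fits with a library left out. The slow calcium pump Atp2a2, at -0.03 (adjusted p = 0.897), did not pass. Without FcγRIIB-/- replicate 1 only 1 of the 10 passed, and without WT replicate 3 or FcγRIIB-/- replicate 3 only 3 did. None of the 10 passed relative to the muscle reference, where a missing call does not show that a gene follows muscle RNA.

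Of 13 genes of thick filament assembly and the M-band 5 passed as higher (14% of all genes did) and none as lower (19.3% did). They include Trim54, a ring finger protein of the sarcomere (log2 fold change 1.13, adjusted p = 0.00792, edgeR), titin (Ttn, 0.69, adjusted p = 0.0396), the myosin chaperone Unc45b (0.68, adjusted p = 0.0212) and the M-band protein Myom3 (0.66, adjusted p = 0.00729). Without FcγRIIB-/- replicate 1 only 2 of the 13 passed, and without WT replicate 4 only 3 did. Titin missed the threshold without WT replicate 3 or 4 or FcγRIIB-/- replicate 1 or 4, and Unc45b without FcγRIIB-/- replicate 1.

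Of 17 genes known to set fiber type 6 passed as lower (19.3% of all genes did) and 1 as higher (14% did). The median log2 fold change of the 17 was -0.13. Prox1, a factor of slow fibers, was lower by a log2 fold change of -1.41 (SE 0.40, adjusted p = 0.0227, edgeR) on 4 to 37 counts, and did not pass without WT replicate 1 or FcγRIIB-/- replicate 1, 2 or 4. Sox6, a repressor of slow genes in fast fibers, was at -0.88 (SE 0.16, adjusted p = 0.00257, edgeR), Nfatc1 at -0.53 (adjusted p = 0.00885) and Mef2d at -0.53 (adjusted p = 0.00283). The transcript 2310065F04Rik rose by 0.95 (adjusted p = 0.00732). Several of these factors are also expressed outside muscle, and bulk RNA does not show in which cells they changed.

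Of 7 kinases and phosphatase subunits that act on the regulatory light chain 3 passed as lower (19.3% of all genes did), which were Ppp1r12b at -0.80 (adjusted p = 0.00419, edgeR), Mylk3 at -0.76 (adjusted p = 0.00738) and the smooth muscle kinase Mylk at -0.47 (adjusted p = 0.0230). Of 9 non-muscle and smooth muscle myosins, the heavy chains Myh10 (-0.63, adjusted p = 0.00154, edgeR) and Myh9 (-0.45, adjusted p = 0.0118) were lower with no overlap, a share near the 19.3% of all genes, and Myl6b (0.70, adjusted p = 0.0204) was higher. Myl6b lost its call without FcγRIIB-/- replicate 1 or 4, and Mylk without WT replicate 3 or FcγRIIB-/- replicate 2. The smooth muscle heavy chain Myh11 did not pass.

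Of 14 genes of myogenesis and regeneration 10 were tested, of which 3 were higher and 1 lower, where 14% of all tested genes passed as higher and 19.3% as lower. Cardiac actin Actc1, which developing and regenerating skeletal muscle also uses, rose by a log2 fold change of 1.63 (SE 0.30, adjusted p = 0.00315, edgeR) with no overlap, and the myogenic factor Myf6 by 1.04 (adjusted p = 0.0187). Runx1 rose by 0.44 (adjusted p = 0.0313), and Ncam1 was lower at -0.28 (adjusted p = 0.0107). Without FcγRIIB-/- replicate 3 Myf6 and Runx1 did not pass, and without WT replicate 1 or FcγRIIB-/- replicate 2 Runx1 did not. The satellite cell factor Pax7 had 2 to 16 counts and the fusion gene Mymk 0 to 4, too few to be tested. Markers of smooth muscle (1 of 6 lower), tendon (1 of 5 lower, Tnmd, not called in 7 of 9 fits with a library left out), fat (1 of 3 tested higher, 1 lower) and nerve (0 of 5 in either direction) are given for the tissues that adjoin muscle.

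The genes whose profile over the 9 libraries was most like each myosin gene were found by the root mean square difference of centred log2 CPM. For Myl1 they were Tnnt3 (0.0789), the triad protein Trdn (0.0798) and Mylpf (0.114), and the first 2 of these were the closest matches of any of the 9. For Myh1 they were Rtn2, Eef1a2 and Sgca (0.118 to 0.122), and for Myh2 Casq1, Actn3 and Myadml2 (0.173 to 0.194). For Myh4 they were Lrtm1, Lrp2bp and a gene with no symbol (0.140 to 0.243), and for Myh8 Tpbgl, the water channel Aqp4 and Dusp27 (0.142 to 0.227). Most of these are genes of muscle fibers, among them the alpha-sarcoglycan Sgca, the calcium store protein Casq1 and the fast actinin Actn3.

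The slow genes Myh7, Myl3 and Myl2 were less closely matched than the rest by their nearest gene, while the embryonic Myh3 was nearest to Lrp2bp, Capn3 and Aldh1a1 (0.105 to 0.137). Myh7 was nearest to Myh15, Gm1974 and Pitx3 (0.516 to 0.583), and Myl3 to a gene with no symbol, the small membrane peptide gene Mrln and 2310040G24Rik (0.224 to 0.282). Myl2 stood apart from the others, since its nearest genes were Acan (0.270), Chad (0.385) and Comp (0.428), which encode proteins of the cartilage matrix. These are descriptions over 9 libraries that share their library sizes and groups.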

How the data were processed

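Per the labels and the study's methods, poly(A) RNA of each mandible was made into a directional library and sequenced as 75-base single reads. The authors trimmed the reads (Trim Galore), aligned them to mm10 (HISAT 02.1.0, per the labels) and deposited raw read counts per gene from featureCounts. The annotation, strand setting and treatment of multiply matching reads are not given in the sources used here. The count table held 1 per-sample column that matched no sample, which was not used, and 1030 rows had no symbol.

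Counts were filtered (filterByExpr, minimum count 10), scaled by TMM and compared by genotype with the quasi-likelihood test of edgeR 4.0.16 in R 4.3.3, with Benjamini-Hochberg adjustment over all 16329 genes at 0.05. The F statistic gave the standard errors, and 2 was the prior count for log2 CPM. Another fit replaced library sizes by the summed counts of 15 muscle genes. Shares and ratios (0.5 added to each count) were tested by two-sided exact permutation of the 9 libraries. The tests were checked on simulated counts. The paper compared the genotypes with DESeq2, here an alternative (1.42.0). Exon lengths and transcripts were those of GENCODE vM21 (basic annotation for lengths), and gene positions and promoters those of RefSeq (GRCm38.p6), which matched all 9 genes.

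The genes and the 20 lists were chosen with earlier results of these data known. Named were all 9 genes, the other sarcomeric myosins, in each other list up to 4 genes called in each direction by size of change, the genes of the ratios, the 3 nearest genes of each member, and Fcgr2b. Genes named beyond this are said to be so where a pattern was noticed afterwards, or are given as markers or for contrast. Libraries within a group differed by more than sampling noise. Replicate numbers do not mark shared animals, and p-values set the differences between groups against the variation between these mice. Those relative to the muscle reference are an exception, since their standard errors did not follow each gene's own variation. Counts give counting error only, and values under 1 CPM rest on few reads.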

Additional observations from a re-analysis of the deposited data

Results flagged for a closer look

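Dixon's ratio was applied to 48 groups of values, where chance alone flags about 5% of groups, and 2 were flagged. Myh7 in WT replicate 4 was at 6.20 CPM, where the next WT mouse was at 2.005 and the lowest at 0.522. This library stood far from the other 4 WT mice, and the Myh7 difference between the groups passed only without it. The log2 ratio of slow to fast troponin T, Tnnt1 to Tnnt3, was -7.61 in FcγRIIB-/- replicate 2, where the other 3 libraries of its group lay between -8.66 and -8.53. That value lies close to the highest WT ratio of -7.68.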

How the results depend on the processing

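The calls of Myh8 and Myl1 held in all 16 alternatives (normalization, filters, DESeq2, replicate block and libraries left out). Myl3 missed the threshold in 11 of 15, with adjusted p up to 0.145 without WT replicates 2 and 5, an alternative chosen after seeing the data. The cause of these changes was not tested. With the filter on at least 10 counts in every library Myl3 was not tested.

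The number of myosin genes passed as higher was 3 and became 5 with the replicate number as a block, where Myh1, Myh2 and Myh4 passed and Myl3 did not. Relative to the muscle reference 1 passed under the block, Myl1 at 0.47 (adjusted p = 0.0391), instead of 0. Same-numbered mice are different animals, and the correlations of their deviations, 0.097, 0.028, -0.114 and -0.074, give no sign of pairing. For 1 of 4 WT mice the same-numbered library was its best match among those labelled FcγRIIB-/-. The block changed no other call of the myosin genes.

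Slow fiber partners passed as higher fell from 6 to 3 with library totals and to 2 without WT replicates 2 and 5, and lay between 1 and 6 with 1 library left out. The share of Myh1 differed by 0.72 percentage points and turned to -0.62 without WT replicates 2 and 5. With 1 library left out it lay between -1.99 and 2.42, and the difference in the Myh3 share between -0.0142 and -0.00859. Reversals with no call on either side were Myl2 (0.13), between -0.42 and 0.74 with 1 library left out, and on the muscle scale Myh2 (-0.093 with fast partners as reference), Myh7 (-0.025) and Myl2 (0.22) without WT replicates 2 and 5. Myl2 on the muscle scale lay between -1.20 and 0.036 with 1 library left out. The log2 ratio of Tnnt1 to Tnnt3 differed by 0.050 without WT replicates 2 and 5, and that of Myl3 to Myl1 between -0.30 and 0.033 with 1 library left out. All genes passed as higher were 1309 with library totals, and 1479 higher and 2066 lower without WT replicates 2 and 5. Depth limits Myh7, Myl3, Myh6 and Prox1, whose libraries hold few counts.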
